A study of Homo sapiens with 12 samples.

Results

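The signal recognition particle (SRP) is the RNA and protein complex that binds signal peptides as they leave the ribosome and brings the ribosome to the endoplasmic reticulum. The 9 genes described here are the 3 genes of its RNA, RN7SL1, RN7SL2 and RN7SL3, and the 6 genes of its proteins, SRP9, SRP14, SRP19, SRP54, SRP68 and SRP72. They were chosen by name from the 60483 gene rows of the total RNA count files, and pseudogenes were left out. Of the 9 genes, 8 had enough counts to be tested and RN7SL1 was listed at 0 in all 6 libraries.

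The study used HEK293, an established human embryonic kidney cell line. Stable Flp-In T-REx lines carried a doxycycline-inducible construct that encodes FLAG-tagged, recoded DIS3L2 together with hairpin microRNAs against the cell's own DIS3L2 mRNA. In the mut group the encoded enzyme was the catalytic mutant, and in the WT group it was wild type. Both groups therefore carried the silencing hairpins and both received doxycycline at 100 ng/ml for 3 days. Each group had 3 total RNA libraries, which were rRNA-depleted and strand-specific, and 3 small RNA libraries, treated with TAP and size-selected for 20 to 200 nt per the sample labels (the series text gives a slightly higher upper limit). The labels do not say whether replicates were separate cultures or whether a group was 1 clone, so p-values measure only how far these libraries scatter, which may be technical variation.

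DIS3L2 is a cytoplasmic exonuclease that degrades RNA from the 3′ end and prefers RNA that carries an added uridine tail. The SRP RNA, 7SL, is made by RNA polymerase III and folds into a particle with an Alu domain and an S domain. SRP9 and SRP14 form a heterodimer on the Alu domain that slows elongation, while SRP19, SRP54, SRP68 and SRP72 sit on the S domain, where SRP54 is the GTPase that holds the signal peptide. Aberrant or immature 7SL RNA is a known substrate of DIS3L2, and the study's title places cytoplasmic noncoding RNAs among the RNAs this enzyme controls.

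Total RNA libraries held between 8315986 and 12675042 counts in genes, and small RNA libraries between 493314 and 1219718 fragments. DIS3L2, counted here as the sum of whatever transgene and cell-derived reads map to it, stood on the counts-per-million scale (CPM) at 1092 ± 51.6 in the mut libraries against 784 ± 25.8 CPM in the WT libraries (SD, n = 3 each), so it does not measure the silencing. Among markers that HEK293 is known for, NEFL, INA and LIN28B passed the count filter, and NEFM and PAX2 were below 1 CPM on average in both groups. The 5 HEK293 markers summed to between 239 and 261 CPM in mut and between 213 and 225 CPM in WT, with NEFL and INA called higher (log2 fold changes of 0.51 and 0.55) and LIN28B lower (-0.22, edgeR adjusted p = 0.023). The 5 fibroblast markers summed to between 3.10 and 5.02 CPM in mut and between 1.47 and 2.27 CPM in WT, with COL1A2, DCN and LUM at 0, and their part in the results was not tested. Blood and other epithelial markers summed to at most 0.470 CPM in every library. Reads with several alignments made up 39.9% ± 2.37 of all deposited reads in mut and 34.5% ± 4.56 in WT, with overlapping groups. Reads shared between several genes made up 9.24% ± 0.63 in mut and 7.68% ± 0.71 in WT, with every mut library above every WT library (exact permutation p = 0.1). Reads outside annotated genes made up 12.9% ± 0.70 in mut and 17.9% ± 1.42 in WT, without overlap (exact permutation p = 0.1, the smallest possible for 3 libraries against 3). None of these reads is in the gene counts, and their part in the results was not tested.

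Across the 9 genes, RN7SL2 and SRP9 were higher in mut cells and SRP54 and SRP14 were lower, while RN7SL3, SRP19, SRP68 and SRP72 did not pass the test. The largest rise was that of RN7SL2, 1.61-fold, and the largest fall that of SRP54, to 0.655 of its WT level. These 4 calls (edgeR quasi-likelihood test, adjusted p under 0.05 over 14409 genes) stand against a background of 27.2% of all tested genes, 13.0% of them higher and 14.2% lower in mut. In the same 4 genes the mut libraries lay wholly on one side of the WT libraries, which was true of 40.5% of all tested genes, with 19.4% above and 21.2% below. The median log2 fold change of the 6 SRP protein genes was -0.05, beside -0.01 over all genes tested. In RNA from whole cultures, more RNA per cell and more cells that hold the RNA cannot be told apart.

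**Figure D1:**
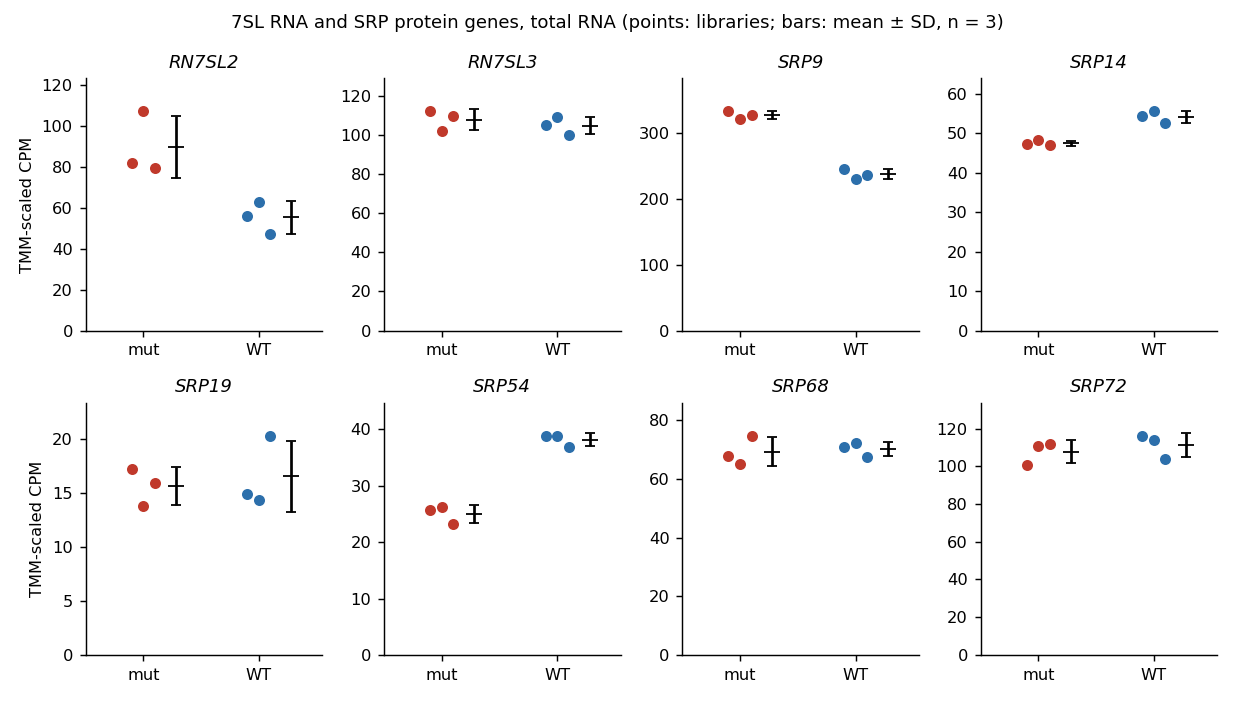
TMM-scaled CPM (vertical axes, each from 0) of the 8 tested genes in the 3 mut (red, left) and 3 WT (blue, right) total RNA libraries, with the mean and SD beside the points. The groups separate for RN7SL2, SRP9, SRP14 and SRP54 and overlap for RN7SL3, SRP19, SRP68 and SRP72.

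The 3 RNA genes lie on chromosome 14 of hg38. RN7SL1 (ENSG00000276168.1) spans 49586580 to 49586878, RN7SL3 (ENSG00000278771.1) 49853616 to 49853914 and RN7SL2 (ENSG00000274012.1) 49862551 to 49862849, each 299 nt long. RN7SL3 and RN7SL2 are 8.64 kb apart, and RN7SL1 lies 267 kb from RN7SL3. In RefSeq the RN7SL1 gene falls within the span of RPS29, a ribosomal protein gene, and no RefSeq gene overlaps the other two. The count files also hold 677 genes named as 7SL pseudogenes, 221 of them with at least 1 count. The 7SL genes are near-identical copies, so reads could be split between them or set aside, which was not tested, and the value of any single 7SL gene is uncertain.

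The 3 mut libraries held 735, 912 and 693 counts of RN7SL2, against 539, 805 and 382 in WT. Scaled to depth by the TMM method, these were 82.1, 107 and 79.6 CPM in mut, against 55.7, 63.0 and 46.9 CPM in WT. All 3 mut libraries were above all 3 WT libraries, with the second mut library highest. RN7SL2 was higher by 0.68 on the log2 scale (SE 0.10, edgeR adjusted p = 9.7e-06), and the difference was 0.54 without that second mut library. Fold changes in this series fall with gene span, and once the trend of each library on gene span was removed RN7SL2 was higher by 0.46 (adjusted p = 0.00031).

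For RN7SL3, the neighbouring copy of the same length, the mut libraries held 1003, 867 and 953 counts, against 1013, 1393 and 815 in WT. These correspond to 112, 102 and 110 CPM in mut, against 105, 109 and 100 CPM in WT, and the groups overlap. The log2 fold change was 0.04 (95% interval -0.09 to 0.17, adjusted p = 0.69), but with the span trend removed RN7SL3 was lower by 0.18 (-0.18, adjusted p = 0.017). Per length, RN7SL3 was above RN7SL2 in every library except the second mut library.

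Set against each other within a library, a comparison that needs no scaling between libraries, RN7SL2 had 0.733, 1.05 and 0.727 counts per count of RN7SL3 in mut, against 0.532, 0.578 and 0.469 in WT. The ratio was higher in all 3 mut libraries, by 0.65 on the log2 scale. An exact permutation test over the 20 assignments of 6 libraries gave a two-sided p = 0.1, the smallest it can give (0.13 adjusted over the 4 ratios computed). RN7SL2 made up 42.3%, 51.3% and 42.1% of the counts of these 2 genes in mut and 34.7%, 36.6% and 31.9% in WT.

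RN7SL1 was listed at 0 counts in every total RNA library, and a count of 0 allows up to 3 counts, or between 0.335 and 0.352 CPM in the mut libraries and between 0.235 and 0.369 CPM in the WT libraries. This limit covers counting error only and says nothing of reads that were set aside. Whether RN7SL1 reads fell among those with several alignments or those that overlap RPS29 was not tested. Summed over the 3 genes, 7SL counts gave 193, 210 and 187 CPM of the counts in genes in mut, against 161, 173 and 144 CPM in WT. The mut libraries were above the WT libraries, by 0.30 on the log2 scale (exact permutation p = 0.1, the smallest possible), although as CPM of all deposited reads the groups overlapped, with 77.0, 77.4 and 69.4 in mut, against 59.8, 70.5 and 60.8 in WT (exact permutation p = 0.2).

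The small RNA libraries gave a second reading of the same genes. Their annotated features include none at the 7SL genes, but 7 of the 4794 loci that the authors' files list as reconstructed overlap them. For each gene and strand the widest locus is described. At 299 nt the genes are longer than the selected sizes, so these libraries were not made to capture full-length 7SL RNA. The main locus of RN7SL1 (chromosome 14, 49586576 to 49586969, plus strand) held 1898, 2977 and 1219 fragments in mut and 1412, 1392 and 1846 in WT, although the gene is at 0 in total RNA. How the files assign fragments that align to several 7SL copies is not given in the sources used here.

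On the authors' fragments-per-million scale (FPM), the RN7SL1 locus stood at 2622, 2441 and 2420 in mut, against 2737, 2822 and 3152 in WT, with no overlap between the groups. The RN7SL2 locus (49862548 to 49863008, minus strand) stood at 1892, 1883 and 2579 FPM in mut, against 2126, 2763 and 2406 FPM in WT, and the groups overlap. The RN7SL3 locus (49853610 to 49853970, minus strand) stood at 73.2, 59.0 and 87.4 FPM in mut, against 120, 116 and 95.6 FPM in WT, and the groups do not overlap. Mut libraries were thus low at RN7SL1 and RN7SL3 on this scale and not separated at RN7SL2.

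None of these differences passed the edgeR test. The log2 fold changes were -0.12 for RN7SL1 (95% interval -0.45 to 0.21, adjusted p = 0.82), -0.13 for RN7SL2 (-0.43 to 0.17, adjusted p = 0.81) and -0.53 for RN7SL3 (-0.97 to -0.08, adjusted p = 0.60 and unadjusted p = 0.042). Single libraries moved these values: RN7SL1 was at -0.0074 without the third mut library and -0.26 without the first, and RN7SL2 was at -0.034 without the second WT library and -0.055 without the second mut library. Of the 589 reconstructed loci tested, 1 was called (0.17%), 46 had an unadjusted p under 0.05, DESeq2 called 4, and mut and WT libraries did not overlap in 11.5%. In total RNA RN7SL2 rose, while its locus here had a fold change below 0. The difference between the assays was not tested.

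**Figure D2:**
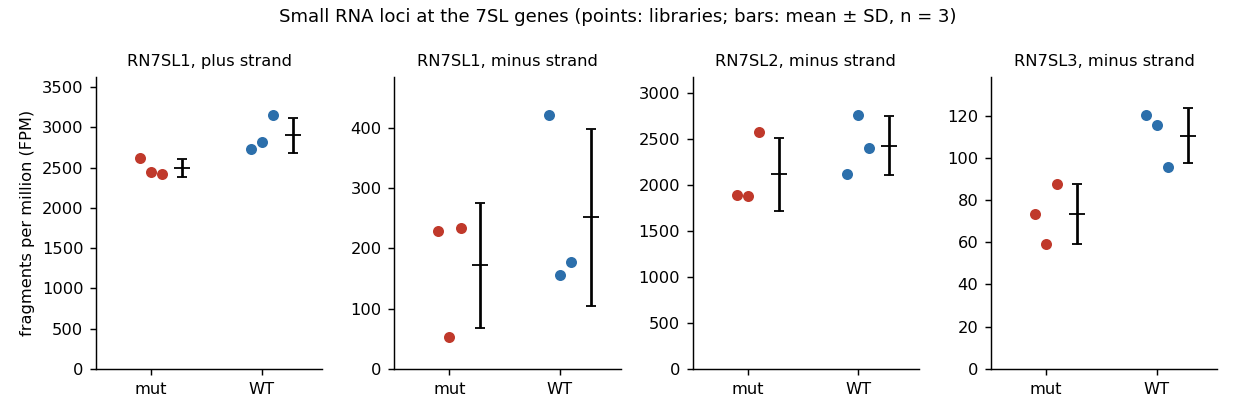
FPM (vertical axes, each from 0) at the widest reconstructed small RNA locus of each 7SL gene and strand, in the 3 mut (red, left) and 3 WT (blue, right) small RNA libraries, with mean and SD. Mut libraries lie below WT libraries at the RN7SL1 plus-strand and RN7SL3 loci and overlap them at the others.

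Per length of the reconstructed locus, the order of the loci was the same in both groups. These lengths are 394, 461 and 361 nt for RN7SL1, RN7SL2 and RN7SL3, although each gene is 299 nt long. RN7SL1 had 6331 ± 282 FPKM in mut and 7369 ± 556 FPKM in WT (SD, n = 3 each), RN7SL2 had 4595 ± 866 FPKM in mut and 5275 ± 692 FPKM in WT, and RN7SL3 had 203 ± 39.2 FPKM in mut and 306 ± 36.2 FPKM in WT. On the FPKM scale the ranges of RN7SL1 and RN7SL2 did not overlap within either group, but on the FPM scale they overlapped in both. In the third mut library RN7SL2 held more fragments than RN7SL1, 1299 against 1219. The order per length therefore depends on the locus boundaries and does not rank the gene copies. RN7SL3 made up 1.60%, 1.35% and 1.72% of the fragments at these 3 loci in mut and 2.41%, 2.03% and 1.69% in WT, whereas in total RNA it held most of the 7SL counts of every library but the second mut library. A plus-strand and a minus-strand locus both overlap RN7SL1, and the minus-strand one (49586298 to 49586880) held 166, 64 and 118 fragments in mut and 217, 77 and 104 in WT.

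The ratio of RN7SL2 to RN7SL3 differed in the same direction in the small RNA libraries, a comparison added after the values of these loci were seen. It was 25.8, 31.9 and 29.5 in mut, against 17.7, 23.9 and 25.2 in WT. All mut values were above all WT values, by 0.40 on the log2 scale (exact permutation p = 0.1, the smallest possible). The difference was 0.24 without the first WT library. The RN7SL3 locus held only 53, 72 and 44 fragments in mut and 62, 57 and 56 in WT, so counting error weighs on this ratio. Here the RN7SL2 and RN7SL3 loci had log2 fold changes of -0.13 and -0.53, against 0.68 and 0.04 for the genes in total RNA. Summed, the 3 loci held 0.459%, 0.438% and 0.509% of the fragments in mut and 0.498%, 0.570% and 0.565% in WT, with overlapping groups (exact permutation p = 0.2).

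Of the Alu-domain proteins, SRP9 was higher and SRP14 lower in mut cells. SRP9 (ENSG00000143742.11, chromosome 1, 225777826 to 225790464) stood at 334, 322 and 327 CPM in mut, against 246, 231 and 237 CPM in WT. The groups were far apart relative to their spread, and SRP9 was higher by 0.46 on the log2 scale (SE 0.06, adjusted p = 7.7e-07 in the edgeR fit). SRP14 (ENSG00000140319.9, chromosome 15, 40035690 to 40039202) stood at 47.2, 48.3 and 47.1 CPM in mut, against 54.4, 55.6 and 52.6 CPM in WT. Its groups did not overlap either, but the change was small, -0.19 (SE 0.07), and the call was marginal (adjusted p = 0.048). It was lost with DESeq2 (adjusted p = 0.14), under 3 other settings of scaling and filtering, and without any 1 of the 6 libraries (adjusted p between 0.075 and 0.15), and with the span trend removed SRP14 was lower by 0.25 (-0.25, adjusted p = 0.0064).

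The 2 transcripts of this heterodimer were compared within each library. There were 7.06, 6.68 and 6.95 counts of SRP9 per count of SRP14 in mut, against 4.52, 4.16 and 4.50 in WT. Every mut library was above every WT library, by 0.65 on the log2 scale (exact permutation p = 0.1, the smallest possible, or 0.13 adjusted over the 4 ratios). The counts are not divided by transcript length, so the ratio says nothing of the proportion of the proteins.

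SRP54 carried the largest fall. SRP54 (ENSG00000100883.10, chromosome 14, 34982992 to 35029567) stood at 25.7, 26.2 and 23.2 CPM in mut, against 38.9, 38.8 and 36.9 CPM in WT. The difference was -0.61 on the log2 scale (SE 0.08, adjusted p = 6.3e-06 in the edgeR fit). The mut libraries were all low and the WT libraries all high, and leaving out any 1 library gave values between -0.64 and -0.54.

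The other S-domain proteins did not pass the test. SRP19 (ENSG00000153037.11, chromosome 5, 112861287 to 112898371), which lets SRP54 bind the RNA, stood at 17.2, 13.7 and 15.9 CPM in mut, against 14.9, 14.3 and 20.3 CPM in WT. Its log2 fold change was -0.05, and its 95% interval of -0.30 to 0.19 is the widest of the 8. SRP68 (ENSG00000167881.13, chromosome 17, 76038785 to 76072517) stood at 67.8, 65.1 and 74.7 CPM in mut, against 70.8, 72.0 and 67.3 CPM in WT, with a log2 fold change of -0.02 (95% interval -0.16 to 0.12). For SRP72 (ENSG00000174780.14, chromosome 4, 56467617 to 56503681) the values were 101, 111 and 112 CPM in mut, against 116, 114 and 104 CPM in WT, with a log2 fold change of -0.05 (95% interval -0.18 to 0.08). Groups overlapped for all 3 genes, and the intervals are normal intervals from the fitted standard errors.

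SRP68 and SRP72 bind the RNA as a heterodimer, as SRP9 and SRP14 do, and their transcripts kept similar proportions. There were 0.671, 0.589 and 0.667 counts of SRP68 per count of SRP72 in mut, against 0.609, 0.634 and 0.647 in WT, which overlap (log2 difference 0.03, exact permutation p = 0.7). In RefSeq, SRP68 overlaps GALR2, and SRP19 overlaps REEP5 and 2 pseudogenes, and reads shared with these genes may be missing from their counts. Levels of different protein genes are not ranked here, since no transcript lengths were used.

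**Figure D3:**
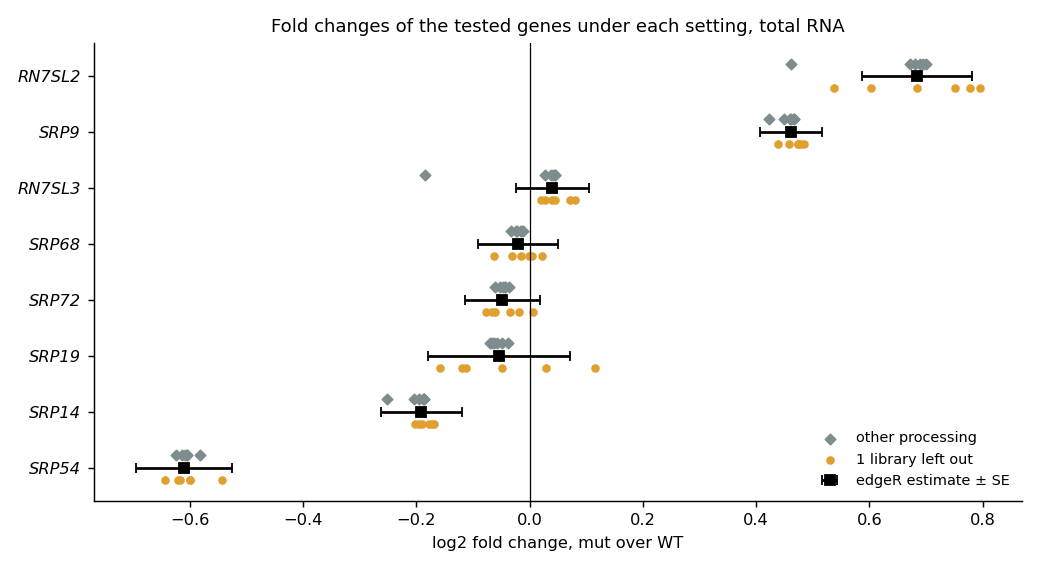
Log2 fold change of mut over WT (horizontal axis) for the 8 tested genes in total RNA: the edgeR estimate with its SE (black squares), 6 other processing settings (grey diamonds) and the 6 fits with 1 library left out (orange circles). RN7SL2, SRP9, SRP14 and SRP54 keep their sign in all of them, and RN7SL3 turns from 0.04 to -0.18 when the span trend is removed.

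The stretches before the annotated starts of the 3 protein genes past the test are shown because SRP9 and SRP14, which encode partners in 1 heterodimer, differed in opposite directions. Each is 250 bases, 5′ to 3′ on the gene's strand, from RefSeq on GRCh38.p14. They lie at chr1:225777576-225777825 (plus strand) for SRP9, chr15:40039203-40039452 (minus strand) for SRP14, the first of 2 listed starts, and chr14:34982742-34982991 (plus strand) for SRP54. Capitals mark matches, on either strand, to 5 short motifs. They are CCAAT, bound by the factor NF-Y, the GC box of Sp1-type factors (GGGCGG), a core bound by the ETS family of factors (CCGGAAG), a form of the TATA box (TATAAA) and a core bound by the CREB family of factors (TGACG).
SRP9: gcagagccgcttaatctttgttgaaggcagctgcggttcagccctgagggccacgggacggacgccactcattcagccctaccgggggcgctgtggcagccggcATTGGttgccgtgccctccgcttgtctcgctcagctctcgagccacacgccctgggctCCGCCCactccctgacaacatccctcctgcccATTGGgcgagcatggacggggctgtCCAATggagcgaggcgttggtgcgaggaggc
SRP14: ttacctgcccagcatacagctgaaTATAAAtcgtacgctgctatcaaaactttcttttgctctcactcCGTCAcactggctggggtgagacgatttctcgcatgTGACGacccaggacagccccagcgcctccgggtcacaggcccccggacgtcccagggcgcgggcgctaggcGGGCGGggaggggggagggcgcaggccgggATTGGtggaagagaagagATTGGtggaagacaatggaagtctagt
SRP54: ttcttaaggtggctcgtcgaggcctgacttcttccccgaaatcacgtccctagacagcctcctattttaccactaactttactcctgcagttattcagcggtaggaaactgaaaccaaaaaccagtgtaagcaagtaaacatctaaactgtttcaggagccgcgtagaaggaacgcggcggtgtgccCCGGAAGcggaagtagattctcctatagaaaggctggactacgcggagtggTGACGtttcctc

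The SRP9 stretch holds 3 CCAAT motifs and 1 GC box. That of SRP14 holds 2 CCAAT motifs, 1 GC box, 1 TATA box and 2 CREB cores. The SRP54 stretch holds 1 ETS core and 1 CREB core, with neither CCAAT nor GC box in this window. Among 27305 RefSeq promoters of the same length, CCAAT occurs in 33.0%, the GC box in 42.3%, the ETS core in 8.82%, the TATA box in 11.1% and the CREB core in 21.7%. These matches are a description of the letters and were not compared with expression.

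The changes of SRP9 and SRP54 had the same direction as most changes of the genes around them. Within 5 Mb on either side of SRP9, on distal chromosome 1q, 48 of 58 tested protein-coding genes were higher in mut and 0 lower, with a median log2 fold change of 0.41, beside 0.46 for SRP9 itself. Within the same distance of SRP54, on proximal chromosome 14, 0 of 38 rose and 30 fell, and their median was -0.48, beside -0.61 for SRP54. Of these neighbours, 65.5% had a lower fold change than SRP9 and 34.2% a lower one than SRP54, and both genes lie between the quartiles of these neighbours (0.28 and 0.50 around SRP9, -0.67 and -0.31 around SRP54). Within 2 Mb, 80.0% of 25 neighbours had a lower fold change than SRP9, which then lay above their upper quartile of 0.43 (median 0.35), and SRP54 stayed between the quartiles of 18 neighbours (-0.67 and -0.37). The part of these chromosome segments in the values of SRP9 and SRP54 was not tested.

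RN7SL2 and SRP14 differed from their surroundings in another way. Around RN7SL2, 1 of 46 tested protein-coding genes was higher and 12 lower, with a median of -0.09, and all 46 had a lower fold change than RN7SL2. RN7SL3 has the same 46 neighbours, and 78.3% of them had a lower fold change. Around SRP14, 5 of 81 neighbours rose and 9 fell, the median was 0.00, and 11.1% had a lower fold change than SRP14. The neighbours of SRP19 had a median of -0.24, with 12 of 27 lower and 1 higher, and SRP19 itself was at -0.05. Medians around SRP68 and SRP72 were 0.06 and -0.10.

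**Figure D4:**
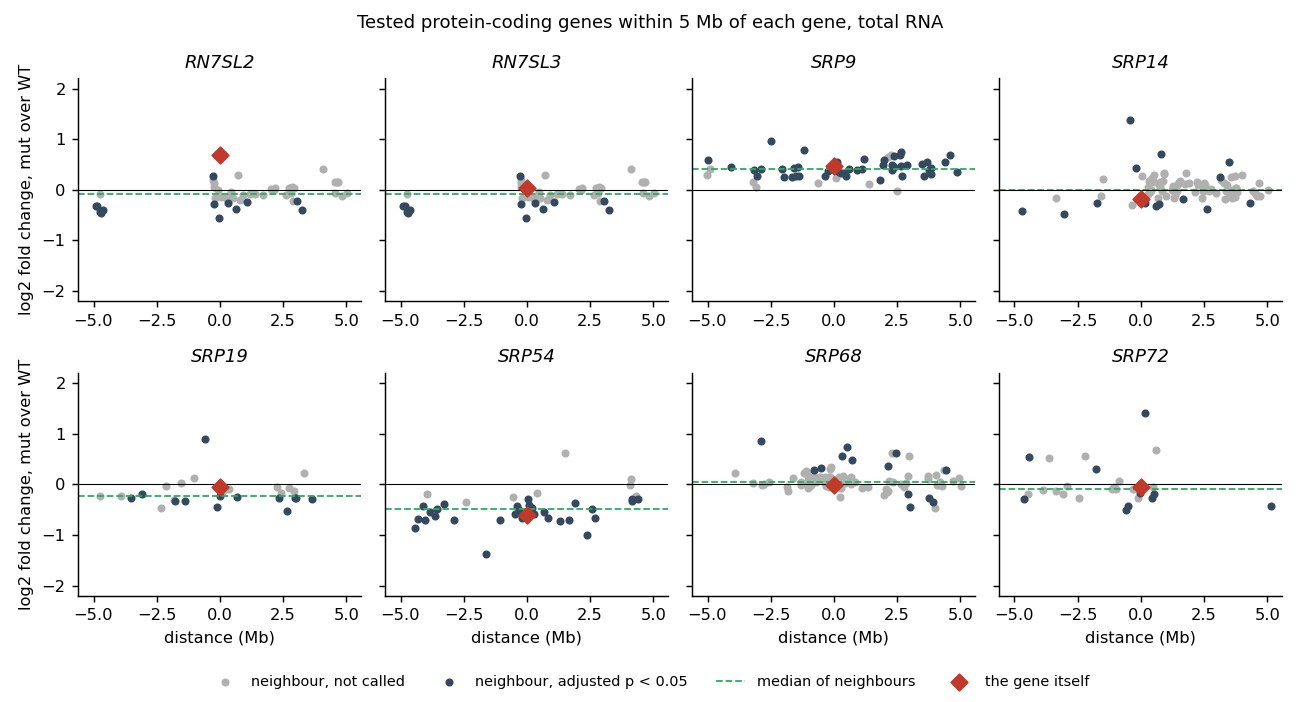
Log2 fold change of mut over WT (vertical axis) against distance between gene midpoints in Mb (horizontal axis) for tested protein-coding genes within 5 Mb of each of the 8 genes (red diamond at 0), with called genes in dark blue, others in grey and the median as a dashed line. SRP9 and SRP54 lie among neighbours with medians of 0.41 and -0.48, and RN7SL2 lies above all 46 of its neighbours.

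The genes whose log2 CPM followed each called gene most closely over the 6 total RNA libraries are given as a description, since libraries of 2 groups that differ make many correlations high. For RN7SL2 they were SCLY, RIPK4 and C10orf95 (Pearson r of 0.997, 0.993 and 0.992), and 132 genes had r over 0.95. For SRP9 they were TMED3, CSRP1 and AGRN (0.998, 0.997 and 0.997), among 460 such genes. ZNF600, ZNG1E and PACRGL followed SRP14 (0.991, 0.990 and 0.989), among 172. HYDIN and TUSC1 followed SRP54 (0.999 and 0.997), among 296.

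The particle hands the ribosome to its receptor and the Sec61 channel, and 43 further genes of these steps, of other targeting routes and of 7SL tailing and decay were examined as 8 lists. Of these, 9 were higher and 5 lower in mut (32.6% called, beside 27.2% of all genes), with a median log2 fold change of 0.08. This share includes the 4 genes of 7SL end binding, tailing and decay, all called, with 1 higher and 3 lower. Those 4 genes were picked with earlier results known and include DIS3L2, which the construct encodes, so the share is not read as an excess. Neither subunit of the SRP receptor passed: SRPRA averaged 155 ± 2.25 CPM in mut, against 145 ± 4.86 CPM in WT, and SRPRB averaged 112 ± 4.80 CPM in mut, against 105 ± 3.53 CPM in WT (SD, n = 3 each, adjusted p = 0.22 and 0.24).

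Of 9 genes of the Sec61 channel and its partners, 1 rose, SEC61A1, which encodes the pore subunit (log2 fold change 0.25, adjusted p = 0.0019). Of the 4 TRAP genes, whose proteins sit beside the channel, SSR1 fell (-0.30, adjusted p = 0.0023). Both catalytic subunits of signal peptidase, SEC11A and SEC11C, rose, by 0.48 and 0.55, while the other 3 subunits did not pass. SEC11A averaged 94.9 ± 2.03 CPM in mut, against 68.1 ± 0.86 CPM in WT, and SEC11C averaged 54.9 ± 1.32 CPM in mut, against 37.6 ± 2.11 CPM in WT (SD, n = 3 each). Their neighbours within 5 Mb, on chromosomes 15 and 18, had medians of 0.35 and 0.28, with 26 of 41 and 16 of 28 higher and 0 lower.

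Of 9 oligosaccharyltransferase genes, STT3A, a catalytic subunit, rose by 0.33 and RPN1 by 0.23, and DAD1 fell (-0.49). DAD1 averaged 84.0 ± 2.68 CPM in mut, against 118 ± 2.10 CPM in WT, and 33 of its 71 neighbours on chromosome 14 were lower, with a median of -0.27. Among 8 genes of targeting routes that bypass SRP, GET1, a membrane insertase subunit, and BAG6, a chaperone for tail-anchored proteins, rose by 0.21 and 0.19 (adjusted p = 0.037 and 0.049). The BAG6 groups overlapped. Both calls were lost with DESeq2 (adjusted p = 0.097 and 0.073). In the edgeR fit GET1 did not pass with no filter on low counts (adjusted p = 0.097). BAG6 did not pass with library totals without TMM (edgeR adjusted p = 0.052) or with the span trend removed (0.061). The GET1 call was also lost without the first or second mut library or the first or second WT library (0.18 to 0.22, adjusted p between 0.064 and 0.13). The BAG6 call was lost without library 1 or 3 of either group (0.13 to 0.19, adjusted p between 0.095 and 0.24), and BAG6 was at 0.28 without the second WT library. BTF3, a subunit of the nascent polypeptide-associated complex, rose by 0.23, and NACA, its partner, averaged 740 ± 15.6 CPM in mut, against 700 ± 3.64 CPM in WT (SD, n = 3 each, adjusted p = 0.24). Within 5 Mb of BTF3, on chromosome 5, 20 of 46 neighbours rose and 1 fell (median 0.20). Near GET1, on chromosome 21, 17 of 44 rose and 1 fell (median 0.18). Near BAG6, on chromosome 6, 27 of 147 rose and 4 fell (median 0.08). Medians around SEC61A1, SSR1, RPN1 and STT3A were -0.03, -0.05, -0.03 and -0.01. The part of these segments in the values was not tested.

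The last list held 4 genes of 7SL end binding, tailing and decay, picked with earlier results known, and it leaves out other factors of this kind. SSB, TUT4 and TUT7 fell, beside 14.2% of all tested genes. SSB encodes La, which binds the uridines at the end of new polymerase III transcripts, and was lower at 92.3 ± 13.3 CPM in mut, against 117 ± 6.72 CPM in WT, a difference of -0.34 on the log2 scale (SE 0.08, adjusted p = 0.0024). The terminal uridylyltransferase genes TUT4 and TUT7 fell as well, with values of -0.34 (SE 0.07, edgeR adjusted p = 0.00061) and -0.53 (SE 0.09, adjusted p = 9.8e-05). TUT7 averaged 31.2 ± 3.54 CPM in mut, against 45.4 ± 4.57 CPM in WT. DIS3L2 was the fourth gene of this list, and the only one that rose (0.48). Neighbours of SSB, TUT4 and TUT7 had medians of -0.11, -0.08 and -0.04.

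**Figure D5:**
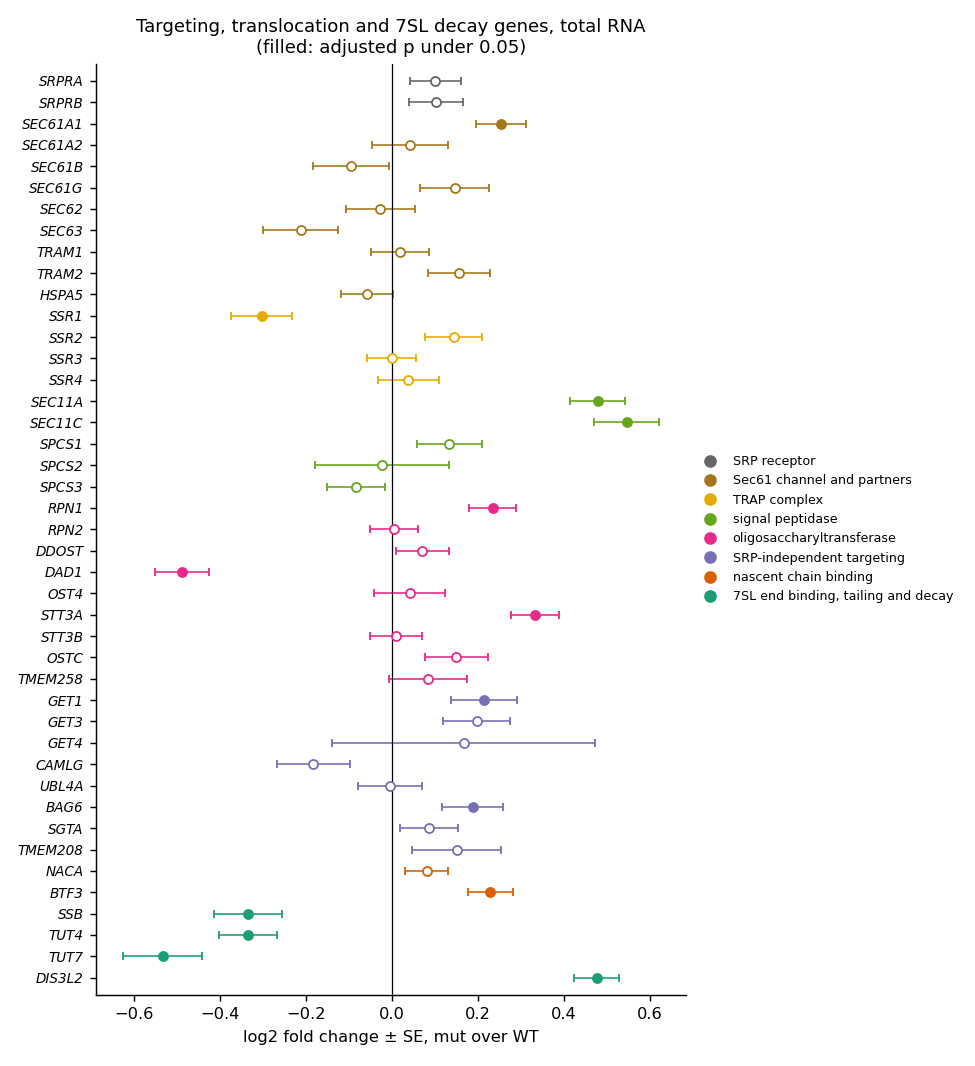
Log2 fold change of mut over WT with its SE (horizontal axis) for the 43 genes of targeting, translocation and 7SL tailing and decay in total RNA, coloured by list, with filled circles for adjusted p under 0.05. SEC11C at 0.55 and TUT7 at -0.53 are the furthest from 0.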

How the data were processed

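Total RNA and small RNA of HEK293 cells were analysed in 3 mut and 3 WT libraries each, grouped by sample titles. Per the submitters' processing notes, build hg38 and the tools STAR 2.4.0, HTSeq 0.6.1, DESeq2 1.8.2, SAMtools 1.2-10, CASAVA 1.8.2 and FastQC 0.11.3 were used, in roles the notes do not give. The total RNA files the authors deposited hold raw counts per Ensembl gene, 60483 in all. Between 57.8% and 63.2% of reads lay in rows without a gene name, which stayed out of library sizes and tests. For small RNA the authors deposited fragment counts, FPM (a signal, fragments scaled to depth) and FPKM per feature, per the file headers. The annotation version, the strand setting and how fragments with several alignments were handled: not given in the sources used here.

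Symbols were matched for 56321 identifiers and RefSeq spans (GRCh38.p14, the same build) for 39374. mut was tested against WT with edgeR 4.0.16 in R 4.3.3 (filterByExpr, TMM scaling, quasi-likelihood F test, Benjamini-Hochberg adjustment at 0.05), on all genes that passed and on reconstructed small RNA loci apart from annotated features, with the FPM denominators as library totals. The planned test for small RNA used fragment counts where files held them. CPM uses TMM-scaled totals, except where stated. Correlations used log2(CPM + 0.5). Sums and ratios were compared with two-sided exact permutation tests (scipy 1.17.1). The edgeR test was checked on simulated total RNA and small RNA counts. For small RNA this check took library totals from the simulated counts, not the FPM denominators used in the fit. Alternatives used DESeq2 1.42.0, limma 3.58.1, other scaling, no filter, the span trend (lowess) and left-out libraries.

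Replicates of total RNA differed by more than sampling noise (chi-square per degree of freedom of at least 1.87), as did small RNA replicates (at least 11.5). In small RNA the third mut library stood apart from the first and second mut libraries (122 and 112). Those 2 libraries gave 27.0 against each other, and the WT pairs gave between 11.5 and 12.4. The genes named are the 9 members, the pathway genes past the test (for a list with none, its smallest adjusted p; both receptor genes are given), and for each called member the 3 best correlated genes, of which 1 is not reported here. Members and lists were chosen with earlier results of these data known.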

Additional observations from a re-analysis of the deposited data

How the results depend on the processing

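RN7SL2, SRP9 and SRP54 kept their direction and their call under all 6 other settings and without any 1 of the 6 total RNA libraries (log2 fold changes of 0.46 to 0.80, 0.42 to 0.48 and -0.64 to -0.54). The SRP14 call was lost with DESeq2 (-0.19, adjusted p = 0.14), DESeq2 size factors (-0.19, adjusted p = 0.054), library totals without TMM (-0.19, adjusted p = 0.053), no filter on low counts (-0.20, adjusted p = 0.078) and each library left out (-0.20 to -0.17). With replicate numbers as a block it was -0.19 (adjusted p = 0.12), and the block ended the calls of GET1 and BAG6 (adjusted p = 0.082 and 0.057) but of none of the other SRP, 7SL or pathway genes called. The numbers do not pair the libraries (correlations of same-numbered deviations of -0.11, -0.09 and 0.03 in total RNA and 0.19, -0.12 and -0.37 in small RNA). Removing the span trend reversed RN7SL3 to -0.18. Leaving out 1 library moved SRP19 between -0.16 and 0.11, SRP68 between -0.063 and 0.021, SRP72 between -0.077 and 0.0064, the SRP68 to SRP72 ratio between -0.0076 and 0.087 the minus-strand RN7SL1 locus between -0.96 and 0.14, its plus-strand locus between -0.26 and -0.0074 and the RN7SL2 locus between -0.18 and -0.034, none of them called. The count of genes lower in mut was 1357 with DESeq2 and between 1274 and 2109 with 1 library left out, against 2049. No 7SL locus was called under any small RNA setting, though without mut library 3 the number of loci called was 42. With 3 libraries a group, exact tests cannot go below p = 0.1.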
